A study of Mus musculus with 6 samples.

Results

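A set of 10 genes that mark the blood capillaries of the lung was followed in RNA sequencing libraries of whole mouse lung: Car4, Ednrb, Apln, Aplnr, Kdr, Plvap, Pecam1, Tek, Cdh5 and Emcn. They were taken by their symbols from a table of 41388 genes. All 10 were found, and all 10 were among the 18660 genes with enough counts to be tested. The animals were adult C57BL/6J wild type mice (WT) and mice that carry a deletion of the 5′ part of Zpbp2, exons 1 to 3 (KO). The KO strain was B6.129S7-Zpbp2tmZuk/Mmjax, kept on a C57BL/6J background, and all lungs were collected at ZT7. The study asked how the Zpbp2 region affects nearby and clock-controlled transcription. There were 6 libraries, WT1 to WT3 and KO1 to KO3, each labelled as its own animal. Both genotypes came from 1 mouse colony. The deletion is carried in every cell of the body, and the libraries come from whole lung, so no cell type was separated.

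Lung alveoli are wrapped by a capillary net made of 2 kinds of endothelial cell. Aerocytes, which express Car4, Ednrb and Apln, form the thin surface for gas exchange, and general capillary cells, which express the apelin receptor Aplnr and Plvap, control vascular tone and serve as the progenitors of the net. Both kinds depend on vascular endothelial growth factor (VEGF), read by the receptor Kdr, and on angiopoietins, read by the receptor Tek, and both hold together through the junction proteins Cdh5 and Pecam1. In bulk libraries fewer cells of a type and less RNA per cell cannot be told apart.

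Sequencing depth was 59134950 to 71354388 counts per library. Zpbp2 had 20, 15 and 7 counts in WT1 to WT3 and 1, 0 and 0 counts in KO1 to KO3, where a count of 0 allows up to 3 counts. KO2 and KO3 differed by little more than counting noise. For genes with 2000 to 20000 counts in the pair their squared difference was 1.93 times that of counting alone, against at least 9.32 times for the other pairs of libraries within a genotype. The labels name them as separate animals, and whether both libraries come from 1 animal is not known. KO2 and KO3 were summed and counted as 1 sample, which leaves n = 3 in WT and n = 2 in KO. A panel of 15 squamous epithelium genes, a tissue foreign to alveoli, summed to 4872 CPM in WT3 and 9289 CPM in KO1 and to between 22.6 and 25.5 CPM in the other 4 libraries. CPM is the count as a share of the TMM-scaled library size, in parts per 1e6.

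The capillary genes had estimates in both directions, and none passed the test after adjustment with edgeR. Car4, Plvap and Emcn had higher levels in every KO library than in any WT library. Ednrb, Aplnr and Tek had lower levels in every KO library, and Apln, Kdr, Pecam1 and Cdh5 overlapped between the genotypes. Of all tested genes, 20.0% lay wholly higher in KO and 20.7% wholly lower, against 3 of 10 in each direction here. With edgeR's quasi-likelihood test and Benjamini-Hochberg adjustment, 0 of the 10 genes passed an adjusted p of 0.05, against 2.28% of all tested genes. At an unadjusted p of 0.05, 4 of the 10 passed (Car4, Plvap, Emcn and Tek), against 27.3% of all tested genes. DESeq2 called these same 4 at an adjusted p of 0.05, against 20.9% of all tested genes. The median log2 fold change of the 10 genes was -0.026, beside 0.015 over all tested genes.

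**Figure D1:**
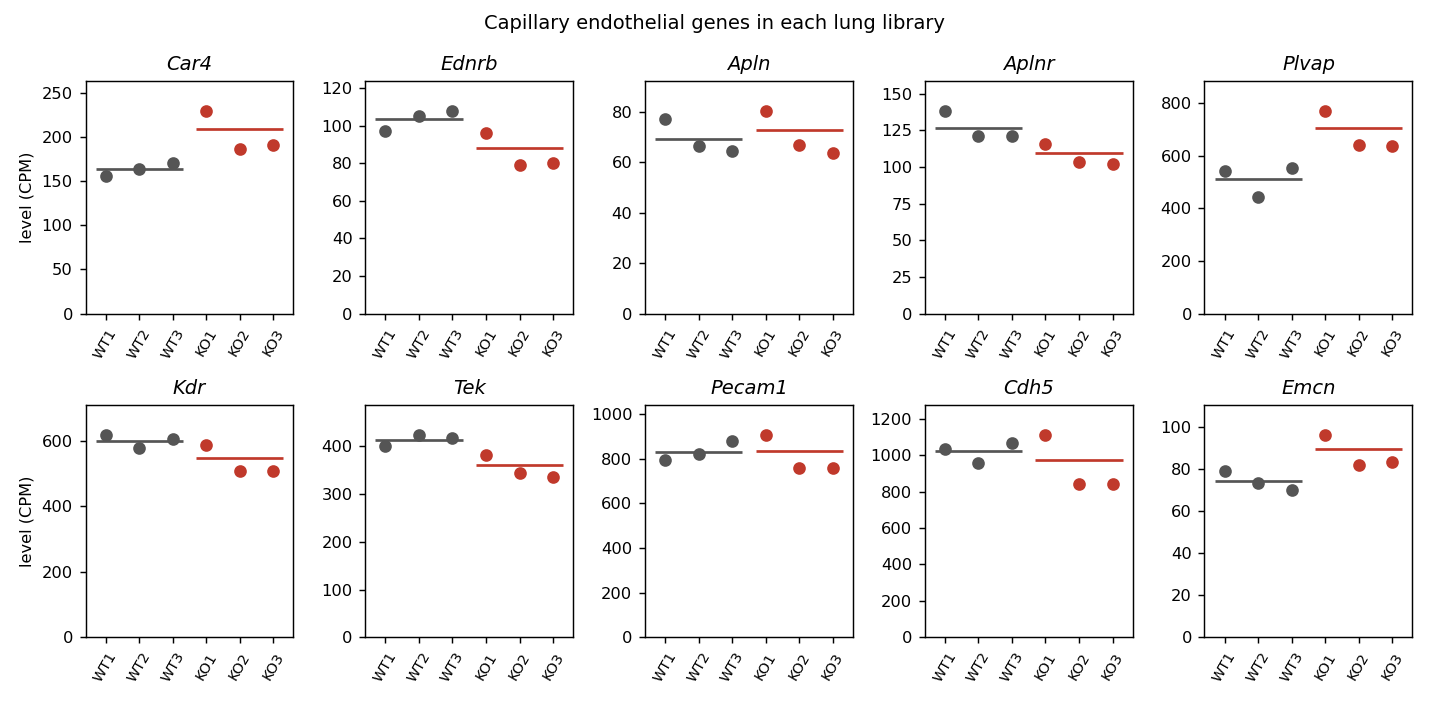
Level of each capillary gene in CPM (vertical axes, from 0) in the 6 libraries. Points are libraries, grey for WT and red for KO, and lines are genotype means, with the mean of KO2 and KO3 as 1 KO value. Car4, Plvap and Emcn lie higher in all KO libraries, Ednrb, Aplnr and Tek lie lower, and KO1 lies above KO2 and KO3 for every gene.

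Car4, the carbonic anhydrase anchored to the outer face of aerocytes, speeds the conversion of bicarbonate to carbon dioxide. It lies on chromosome 11 (GRCm38, 84957786 to 84966044, plus strand), 13.6 Mb from Zpbp2. Its level was 156, 164 and 170 CPM in WT1 to WT3 and 229, 186 and 191 CPM in KO1 to KO3. All KO values were above all WT values, and KO1 stood apart at the top. The mean was 163 ± 6.91 CPM in WT (SD, n = 3) and 209 ± 28.6 CPM in KO (SD, n = 2). Car4 thus had a log2 fold change of 0.36 (SE 0.094, 95% interval 0.12 to 0.60), with an adjusted p of 0.0926 (edgeR), so it did not pass the threshold. With KO1 left out it was 0.20, and with KO2 and KO3 left out it was 0.49.

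Ednrb, the type B endothelin receptor, marks the same cells and clears endothelin from the circulation. It lies on chromosome 14 (103814625 to 103844402, minus strand). Its level was 97.0, 106 and 108 CPM in WT and 96.3, 79.1 and 80.5 CPM in KO. The groups only just separated, since KO1 and WT1 were nearly equal. The log2 fold change was -0.23 (SE 0.095, 95% interval -0.47 to 0.014; adjusted p = 0.202, edgeR). The aerocyte markers Car4 and Ednrb therefore had estimates of opposite sign.

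The ratio of Car4 to Ednrb counts varied little between libraries of a genotype. It was 1.61, 1.55 and 1.58 in WT1 to WT3 and 2.38, 2.35 and 2.37 in KO1 to KO3, or 1.58 ± 0.030 (SD, n = 3) against 2.37 ± 0.011 (SD, n = 2). A ratio is free of library scaling but not of the trend with gene length described below. Plvap to Aplnr, a pair of general capillary genes, gave 3.92, 3.65 and 4.58 in WT and 6.66, 6.18 and 6.25 in KO, with KO1 highest. Car4 and Plvap have 1.97 and 1.99 kb of exons, and Ednrb and Aplnr have 4.27 and 3.70 kb. With an offset for length and GC content the log2 fold changes went from 0.36 to 0.26 for Car4 and from -0.23 to -0.18 for Ednrb. They went from 0.46 to 0.27 for Plvap and from -0.21 to -0.24 for Aplnr. These ratios were picked after the levels were known and are given as a description with no test.

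**Figure D2:**
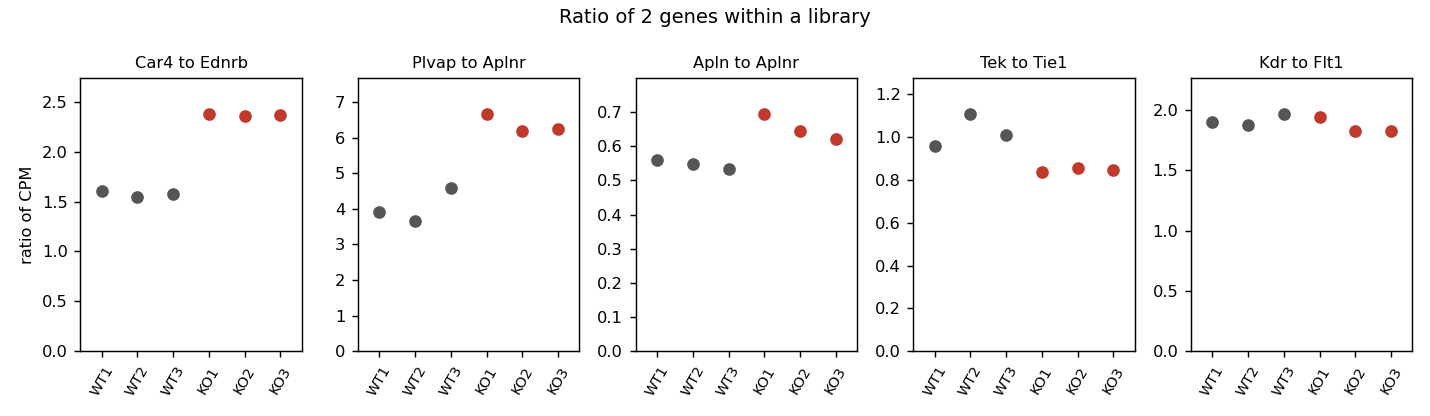
Ratio of the CPM of 2 genes in each library (vertical axes, from 0), grey for WT and red for KO. Car4 to Ednrb lies between 1.55 and 1.61 in WT and between 2.35 and 2.38 in KO, whereas Kdr to Flt1 overlaps between the genotypes.

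Car4 and Emcn are shown with Ednrb and Tek by the sequence just before their RefSeq start sites, since the first pair lay higher in KO and the second lower. Each run is the 100 bases before the RefSeq start on GRCm38.p6, read 5′ to 3′ on the gene's strand, and capitals mark GGAA, the core that ETS factors of endothelium bind, or TTCC, the same core on the other strand.
Car4: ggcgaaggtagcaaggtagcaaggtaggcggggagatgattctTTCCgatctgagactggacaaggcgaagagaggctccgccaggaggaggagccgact
Emcn: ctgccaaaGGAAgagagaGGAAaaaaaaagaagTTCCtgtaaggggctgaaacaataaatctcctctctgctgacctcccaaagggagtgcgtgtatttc
Ednrb: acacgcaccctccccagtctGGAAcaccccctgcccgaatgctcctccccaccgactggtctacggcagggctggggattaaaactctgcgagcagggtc
Tek: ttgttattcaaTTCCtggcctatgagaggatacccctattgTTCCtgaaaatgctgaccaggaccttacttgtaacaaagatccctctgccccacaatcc

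The starts are those of RefSeq, and gene spans given here are those of GENCODE. For Ednrb the RefSeq start lies inside the GENCODE span, so its window is within that gene model, and for Emcn the window runs past the GENCODE start. These windows are chr11:84957654-84957753 (plus strand) for Car4, chr3:137340978-137341077 (plus) for Emcn, chr14:103843702-103843801 (minus) for Ednrb and chr4:94739189-94739288 (plus) for Tek. RefSeq entries were matched for 6 of the 10 genes, these 4 with Kdr and Apln, and the others are Aplnr, Plvap, Pecam1 and Cdh5. The core was found in 5 of the 6 windows, on either strand: 3 times for Emcn, 2 times for Tek, once each for Car4, Ednrb and Apln, and not for Kdr. Of 32851 promoter windows of the same length, 66.8% held it. It was thus present before genes that lay higher and before genes that lay lower. CANNTG, the form of an E-box, was found in 1 of the 6 windows (Apln, 2 times) against 34.4% of all windows. CACCC, read on both strands for KLF factors, was found in 2 of 6 (Ednrb and Kdr) against 27.2%. A match describes letters and not binding.

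Endothelins reach Ednrb and its partner receptor Ednra on smooth muscle. Ednra was at 104, 93.5 and 101 CPM in WT and 92.1, 77.4 and 79.3 CPM in KO. All KO values were lower, as for Ednrb, and the estimate was -0.22 (SE 0.089, adjusted p = 0.195, edgeR). The ratio of Ednrb to Ednra overlapped between the genotypes, from 0.936 to 1.13 in WT and from 1.02 to 1.04 in KO. The ligand genes Edn1 and Edn3 overlapped, with log2 fold changes of 0.062 and 0.008, and Edn2 was scarce. Its libraries held 13, 52 and 88 counts for the 3 WT lungs against 6, 5 and 6 for the KO lungs, with all KO values lower, and the estimate was -3.06 (SE 0.968, adjusted p = 0.128, edgeR). Mme, a peptidase that degrades endothelin, was at 88.7 to 104 CPM in WT and 67.1 to 70.4 CPM in KO (log2 fold change -0.46, adjusted p = 0.0537, edgeR), and with an offset for gene length and GC content it was -0.22 (adjusted p = 0.183). With the same offset Ednra was at -0.13. Ece1, which releases active endothelin and is the most abundant gene of the list, overlapped (0.024). Of the 8 genes of the endothelin list, 0 were called by edgeR in either direction, 4 lay wholly lower in KO (20.7% of all tested genes did) and the median was -0.109. At an unadjusted p of 0.05, 2 of the 8 passed, against 27.3% of all tested genes.

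Apln, the peptide ligand made by aerocytes, lies on chromosome X (48025146 to 48034853, minus strand). Its level was 77.2, 66.4 and 64.6 CPM in WT and 80.2, 66.8 and 63.6 CPM in KO. The groups overlapped almost fully, and the log2 fold change was 0.072 (SE 0.122, 95% interval -0.24 to 0.38; adjusted p = 0.750, edgeR). The interval leaves room for a change of up to about 0.38 on the log2 scale in this direction. Aplnr, its receptor on general capillary cells, lies on chromosome 2 (85136225 to 85139923, plus strand). Its level was 138, 121 and 121 CPM in WT and 116, 104 and 102 CPM in KO, with every KO value lower. Aplnr had an estimate of -0.21 (SE 0.090, 95% interval -0.44 to 0.018; adjusted p = 0.210, edgeR). Ligand to receptor, the ratio was 0.559, 0.547 and 0.533 in WT and 0.694, 0.645 and 0.623 in KO, a separation that Apln itself did not show. Among the 6 apelin pathway genes that were matched, 0 were called by edgeR and the median was 0.117. Of them 2 had an unadjusted p of 0.05 or less, against 27.3% of all tested genes. Gnai2, a G protein subunit and the most abundant gene of this list, overlapped (0.16). Klf2, a flow-responsive transcription factor on the list, was at 208 to 266 CPM in WT and 313 to 366 CPM in KO (log2 fold change 0.57, SE 0.128, adjusted p = 0.0721, edgeR), and 0.37 with the length and GC offset.

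Plvap builds the diaphragms of endothelial fenestrae and caveolae. It lies on chromosome 8 (71497765 to 71511752, minus strand), overlapping Gtpbp3 on the other strand. Since the strand setting of the counting is not given in the sources used here, reads of this pair cannot be told apart. Its level was 541, 443 and 554 CPM in WT and 770, 640 and 639 CPM in KO. No KO value fell within the WT range, and the log2 fold change was 0.46 (SE 0.133, 95% interval 0.12 to 0.80, adjusted p = 0.109, edgeR). This estimate was the highest of the 10 genes. With an offset for gene length and GC content Plvap was at 0.27 and Emcn was highest (0.37).

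Kdr, the main signalling receptor for VEGF, lies on chromosome 5 (75932827 to 75978458, minus strand). Its level was 618, 579 and 605 CPM in WT and 589, 508 and 507 CPM in KO. KO1 lay within the WT range and KO2 with KO3 below it. The estimate was -0.13 (SE 0.083, 95% interval -0.34 to 0.084; adjusted p = 0.384, edgeR), and it was 0.020 after an offset for gene length and GC content. Flt1, the decoy receptor for VEGF, had an estimate of -0.10 (SE 0.065), or 0.098 with that offset (ratio of Kdr to Flt1 1.92 ± 0.046 in WT, SD, n = 3, and 1.88 ± 0.080 in KO, SD, n = 2). The co-receptors Nrp1 and Nrp2 lay lower in every KO library, with log2 fold changes of -0.21 and -0.19 that became -0.018 and -0.024 with the same offset, whereas the ligand Vegfa, made largely by alveolar type 1 cells, overlapped (-0.045). The other ligands overlapped too, with 0.13 for Figf (VEGF-D), 0.12 for Pgf, -0.26 for Vegfb and -0.081 for Vegfc, as did the lymphatic receptor Flt4 at -0.041. With the offset these were 0.096 for Figf, 0.009 for Pgf, -0.50 for Vegfb, -0.11 for Vegfc and 0.016 for Flt4. Of the 14 genes of the VEGF list 0 were called by edgeR and the median was -0.063. Of them 3 had an unadjusted p of 0.05 or less, against 27.3% of all tested genes.

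Tek, also named Tie2, is the angiopoietin receptor that keeps vessels quiescent. It lies on chromosome 4 (94739289 to 94874976, plus strand). Its level was 401, 424 and 417 CPM in WT and 382, 344 and 335 CPM in KO, without overlap. The log2 fold change was -0.19 (SE 0.069, 95% interval -0.37 to -0.017; adjusted p = 0.157, edgeR). Tie1, the orphan partner of Tek, overlapped between the genotypes at 382 to 419 CPM in WT and 397 to 455 CPM in KO. The ratio of Tek to Tie1 was 0.956, 1.11 and 1.01 in WT and 0.838, 0.858 and 0.844 in KO, lower in every KO library. Angpt1, the activating ligand supplied by mural and mesenchymal cells, was at 81.3, 78.2 and 71.7 CPM in WT and 59.7, 53.4 and 54.2 CPM in KO (log2 fold change -0.44, SE 0.079, adjusted p = 0.0553, edgeR). Angpt2, the context-dependent antagonist, overlapped (-0.10, SE 0.137), and Angpt4 was scarce (2.5 CPM in WT and 1.5 CPM in KO). Ptprb, the phosphatase that switches Tek off, was at 1247, 1278 and 1184 CPM in WT and 936, 945 and 929 CPM in KO, with an estimate of -0.40 (SE 0.061) and an adjusted p of 0.0501 (edgeR), just outside the threshold. With the length and GC offset it was -0.16 (adjusted p = 0.213, edgeR) for Ptprb, a gene with 13.3 kb of exons, -0.34 for Angpt1 and -0.13 for Tek. Of the 10 genes of the angiopoietin list 0 were called by edgeR and the median was -0.147. Of them 5 had an unadjusted p of 0.05 or less, against 27.3% of all tested genes.

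Pecam1 and Cdh5 join endothelial cells to each other and are general endothelial genes. Pecam1 lies on chromosome 11 (106654217 to 106750628, minus strand), 8.10 Mb from Zpbp2. Its level was 793, 820 and 878 CPM in WT and 906, 760 and 759 CPM in KO, so KO1 lay above and KO2 with KO3 below every WT library. This gave an estimate of 0.009 (SE 0.095, 95% interval -0.23 to 0.25; adjusted p = 0.965, edgeR). Cdh5, the VE-cadherin of adherens junctions, lies on chromosome 8 (104101625 to 104144511, plus strand) and overlaps the antisense gene Gm29682. It was at 1033, 959 and 1068 CPM in WT and 1110, 844 and 839 CPM in KO, the same arrangement. The log2 fold change was -0.061 (SE 0.130, 95% interval -0.39 to 0.27; adjusted p = 0.803, edgeR). For both genes the intervals include changes of up to about 0.23 in either direction, so a change of that size is not excluded. Emcn, endomucin, is a sialomucin of capillary and venous endothelium on chromosome 3 (137341067 to 137432185, plus strand). It was at 79.2, 73.6 and 70.3 CPM in WT and 96.4, 82.2 and 83.6 CPM in KO, all KO values being higher. Emcn had an estimate of 0.27 (SE 0.088, 95% interval 0.049 to 0.50; adjusted p = 0.131, edgeR).

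**Figure D3:**
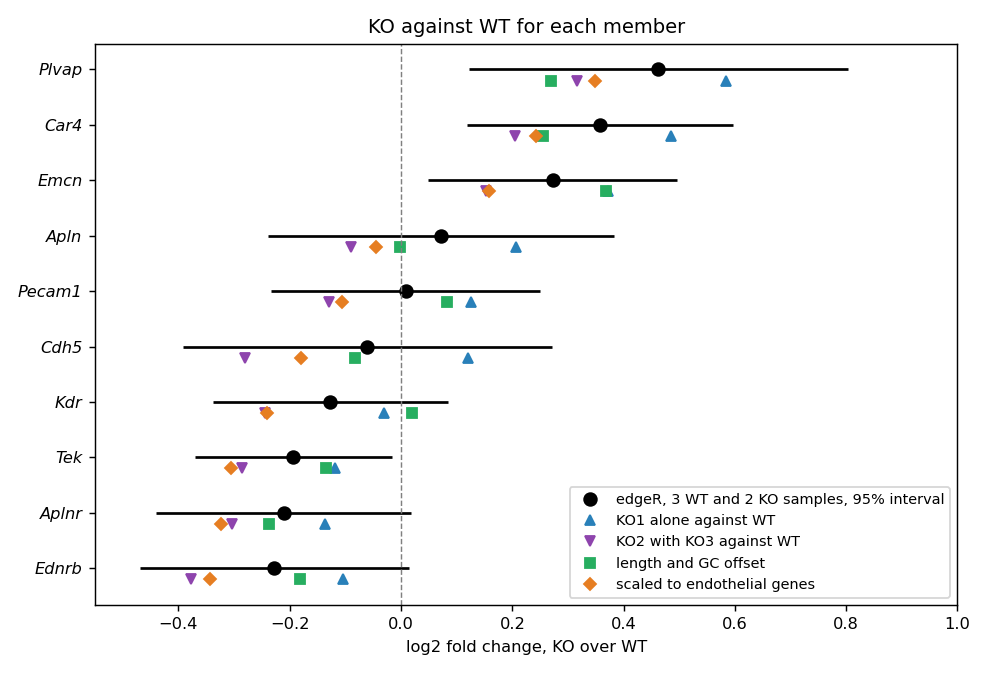
Log2 fold change of KO over WT for each gene (horizontal axis), with black points and bars for the edgeR estimate and its 95% interval. Coloured marks give the estimate from KO1 alone, from KO2 with KO3 alone, with an offset for length and GC content, and after scaling to 30 endothelial genes. Among the black points Plvap is highest at 0.46 and Ednrb lowest at -0.23. With the length and GC offset Emcn is highest at 0.37 and Aplnr lowest at -0.24.

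KO1 differed from KO2 and KO3 by more than the WT libraries differed from each other. The median deviation of the 10 genes from their WT means was 0.125 in KO1, -0.183 in KO2 and -0.186 in KO3 on the log2 scale, and 0.031, -0.034 and 0.036 in WT1 to WT3. With KO2 and KO3 left out, Ednrb, Aplnr and Tek had estimates of -0.105, -0.136 and -0.119, and with KO1 left out they had -0.38, -0.30 and -0.29. Plvap and Emcn had 0.58 and 0.37 in the first case and 0.32 and 0.15 in the second. Between the libraries with squamous epithelium RNA (KO1 and WT3), Car4, Plvap and Emcn differed by 0.43, 0.47 and 0.46, and between those with little of it by 0.24, 0.39 and 0.12. For Ednrb, Aplnr and Tek the values were -0.16, -0.068 and -0.13 in the first comparison and -0.34, -0.33 and -0.28 in the second. Since these 6 genes do not overlap between the genotypes, their signs could not differ. Of the other 4, Kdr was below 0 in both comparisons (-0.038 and -0.24), and Apln, Pecam1 and Cdh5 were above 0 in the first and below 0 in the second. Fits with a squamous epithelium term and without WT3 and KO1 are given below with the other alternatives. Beyond these, the part of squamous epithelium RNA in the results was not tested.

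To set the genes against endothelium as a whole, the geometric mean of 30 further pan-endothelial genes was used. It was 210, 207 and 216 CPM in WT and 243, 212 and 212 CPM in KO, with KO1 highest here too. Relative to that mean, Car4, Plvap and Emcn were higher in KO by 0.24, 0.35 and 0.16 on the log2 scale. Ednrb, Aplnr, Tek and Kdr were lower, at -0.34, -0.32, -0.31 and -0.24, followed by Cdh5 at -0.18, Pecam1 at -0.10 and Apln at -0.041. Of the 30 genes 0 were called by edgeR, and 10 had an unadjusted p of 0.05 or less, against 27.3% of all tested genes. Estimates were above 0 for 21 of the 30 genes, and the median was 0.105. The most abundant of the 30 genes, Ace and Cav1, had estimates of 0.11 and -0.037. This scaling moved the median of all tested genes to -0.091.

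Per length, counted as CPM per kb of summed exons, the order in WT was Plvap (258 ± 30.5), Cdh5 (243 ± 13.3), Pecam1 (133 ± 6.96), Tek (87.8 ± 2.51), Car4 (83.0 ± 3.51), Kdr (66.5 ± 2.21), Aplnr (34.3 ± 2.61), Ednrb (24.2 ± 1.32), Apln (22.0 ± 2.16) and Emcn (13.8 ± 0.832; SD, n = 3 throughout). The neighbours Plvap and Cdh5, Tek and Car4, and Ednrb and Apln overlapped between libraries. In KO, Plvap (355 ± 46.3, SD, n = 2) lay above Cdh5 (232 ± 45.2, SD, n = 2) in each library, and Car4 (106 ± 14.6, SD, n = 2) lay above Tek (76.5 ± 6.26, SD, n = 2). Counts were not corrected for transcript variants, so these levels are approximate.

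Fold changes went with gene length across the genome. Over 18524 tested genes with a length, Spearman's rho between exon length and log2 fold change was -0.334, given as a description across genes. Genes of up to 2 kb, the class of Car4 and Plvap, had a median of 0.177, and genes above 9 kb, the class of Kdr, had a median of -0.179. Genes of 4 to 6 kb, the class of Ednrb, Tek, Cdh5 and Emcn, had a median of -0.001. Emcn at 0.27 lay above and Ednrb and Tek at -0.23 and -0.19 lay below the quartiles of their class, which were -0.150 and 0.131, and Cdh5 lay between them. Plvap lay above the upper quartile of its class (0.396) and Aplnr below the lower quartile of the 3 to 4 kb class (-0.120). Car4, Apln, Pecam1 and Kdr lay between the quartiles of genes of their length. With an offset for length and GC content Car4, Plvap and Emcn had estimates of 0.26, 0.27 and 0.37, so that Emcn and not Plvap was highest, and Ednrb, Aplnr and Tek had -0.18, -0.24 and -0.13. The count of called genes over the whole table fell from 426 to 0, with 3896 genes at an unadjusted p of 0.05 or less (edgeR). The part of length in the results was not tested further.

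**Figure D4:**
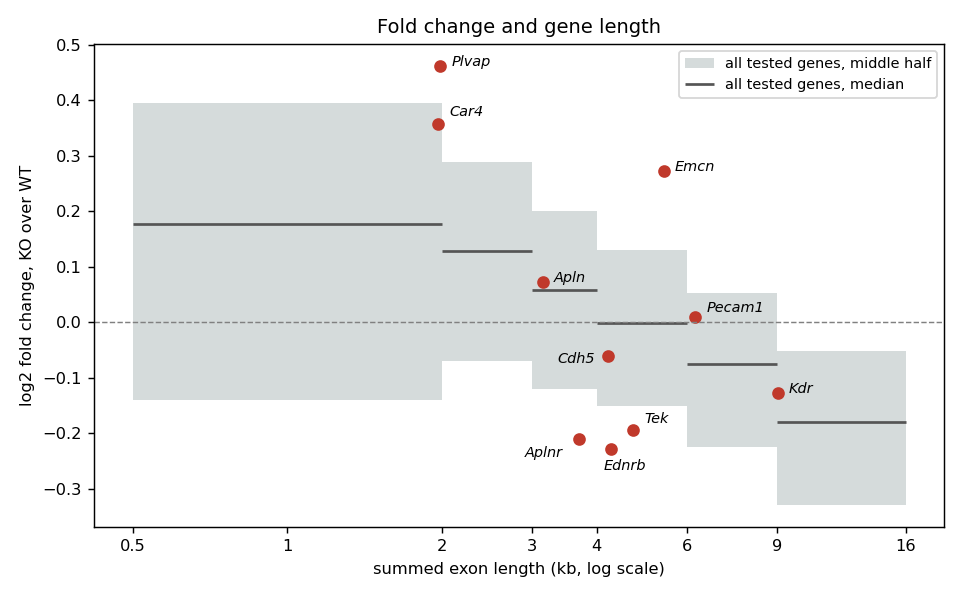
Log2 fold change of KO over WT (vertical axis) against summed exon length in kb (horizontal axis, log scale). Red points are the capillary genes, lines the medians of all tested genes in 6 length classes and grey boxes their ranges from the lower to the upper quartile, with the shortest and longest class drawn only to the ends of the axis. The medians go from 0.177 for the shortest to -0.179 for the longest class, and Car4 and Plvap sit in the shortest.

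Further markers of the 2 capillary cell types were described from lists. Of 10 aerocyte genes 0 were called by edgeR, and 2 had an unadjusted p of 0.05 or less, against 27.3% of all tested genes. Of the 10, 8 had estimates above 0 and the median was 0.150. Their most abundant genes were Emp2 (-0.11), which alveolar type 1 cells also express, and Igfbp7 (0.30, SE 0.080, adjusted p = 0.0960, edgeR), which was at 0.12 with the length and GC offset. Of 9 general capillary genes 2 fell, Lpl and Glp1r, and 0 rose, against 2.28% of all tested genes called in either direction. The list median was -0.097. Lpl, the lipoprotein lipase, was at 367, 364 and 367 CPM in WT and 178, 175 and 177 CPM in KO, a fall of 1.04 on the log2 scale (log2 fold change -1.04, SE 0.050, adjusted p = 0.0251, edgeR). Glp1r, the receptor of an incretin hormone, was at 57.0, 58.2 and 52.1 CPM in WT and 37.8, 41.9 and 39.3 CPM in KO (log2 fold change -0.50, SE 0.073, adjusted p = 0.0474, edgeR). With any one WT library or KO2 with KO3 left out no gene of the table was called, and Lpl then had estimates of -1.05 to -1.04 with adjusted p of 0.0840 to 0.189 (edgeR). Without KO1, Lpl was called (-1.06, adjusted p = 0.0410) and Glp1r was not (-0.46, adjusted p = 0.100, edgeR). With the length and GC offset neither was called (Lpl -0.84, adjusted p = 0.0699; Glp1r -0.44, adjusted p = 0.0973, edgeR). Gpihbp1, which carries the Lpl protein on capillary walls, had an estimate in the other direction (0.40, SE 0.071, adjusted p = 0.0543, edgeR). The most abundant of this list, Ptprb and Cd93, had estimates of -0.40 and -0.092.

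Lpl is also made by adipocytes and heart muscle, and markers of both lay lower in KO. The 10 adipocyte genes summed to 1290 to 1827 CPM in WT and 451 to 489 CPM in KO, with none at 0. Of them 3 were called lower (Lipe, Pck1 and Plin1), against 2.28% of all tested genes called in either direction. Pnpla2 and Car3 were the most abundant, at -0.49 and -1.61. The 10 cardiomyocyte genes summed to 2665 to 7445 CPM in WT and 1388 to 1628 CPM in KO, with 0 called by edgeR and none at 0. Of them 7 had an unadjusted p of 0.05 or less, against 27.3% of all tested genes, and Myh6 (-1.89) and Actc1 (-0.82) were the most abundant. Of 10 genes of adipose or heart capillaries 2 fell, against 2.28% of all tested genes called in either direction. Cd300lg was at 25.8 to 26.9 CPM in WT and 4.84 to 5.58 CPM in KO (log2 fold change -2.35, adjusted p = 0.0251, edgeR). Aqp7 was at 5.32 to 8.51 CPM in WT and 0.651 to 0.854 CPM in KO (-3.22, adjusted p = 0.0446, edgeR). Without KO1, Cd300lg was called (-2.26, adjusted p = 0.0185, edgeR), and Aqp7, Lipe, Pck1 and Plin1 were not, with adjusted p of 0.0638 to 0.0951 and estimates of -3.19, -0.92, -3.47 and -2.73. With the length and GC offset Cd300lg and Aqp7 were not called (adjusted p of 0.0699 and 0.0777, edgeR), with estimates of -2.44 and -3.28. Cd300lg lies on chromosome 11 (102041509 to 102055620, plus strand), the chromosome of Zpbp2, and nearer to it than Car4 or Pecam1. The study also listed Cd300lg as lower in KO lungs at its other time point. Whether its level goes with the locus or with adipose and heart tissue was not tested. The most abundant of the capillary list were Cd36 (-0.30) and Gpihbp1. The part of these tissues in the levels of Lpl and of the capillary genes was not tested.

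Other vessel types were read from lists of their own. Of 10 arterial genes 0 were called by edgeR (4 at an unadjusted p of 0.05 or less, against 27.3% of all tested genes). The median was 0.150, with Ltbp4 at 0.018 and Mgp at 0.37 (adjusted p = 0.0512, edgeR) as the most abundant. Of 10 venous genes 0 were called by edgeR and 0 had an unadjusted p of 0.05 or less, and the median was -0.006 (Vwf -0.097, Ephb4 0.068). Of 9 tested lymphatic genes 0 were called by edgeR (5 at an unadjusted p of 0.05 or less, against 27.3% of all tested genes). The median was -0.194, with Lyve1 at 0.015 and Pdpn at 0.21 as the most abundant. Of the 9, 6 had estimates below 0. Prox1, the factor that sets lymphatic identity, was at 11.8, 8.37 and 7.87 CPM in WT1 to WT3 and 3.43 to 3.81 CPM in KO (log2 fold change -1.35, adjusted p = 0.0510, edgeR). Lyve1 and the receptor Flt4 (-0.041) overlapped between the genotypes. The cardiomyocyte sum took the same order in WT1 to WT3 as Prox1 (7445, 3233 and 2665 CPM), and a link was not tested. In all, 4 of the lymphatic genes lay wholly lower and 2 wholly higher in KO, against 20.7% and 20.0% of all tested genes. Mmrn1 (-0.38, or -0.27 with the length and GC offset) and Reln (-0.59, or -0.29) were among the lower, and Tbx1 had the highest estimate of the list (0.66). Of 10 pericyte genes, the mural partners of capillaries, 0 were called by edgeR (3 at an unadjusted p of 0.05 or less, against 27.3% of all tested genes). The median was -0.223, with Postn at -0.17 and Pdgfrb at -0.18 as the most abundant.

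**Figure D5:**
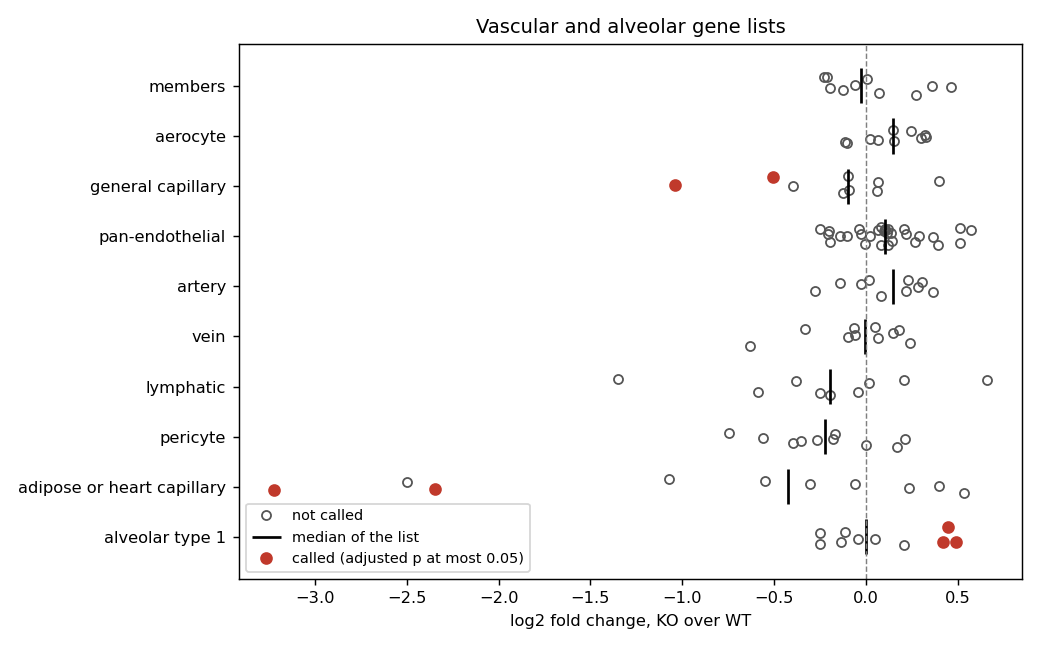
Log2 fold change of KO over WT (horizontal axis) for every tested gene of 10 lists (vertical axis). Open points are genes that were not called, red points are genes with an adjusted p of 0.05 or less and black bars are list medians. The capillary genes sit on both sides of 0 with a median of -0.026, and called genes appear among general capillary, adipose or heart capillary and alveolar type 1 genes.

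Lists of the alveolar epithelium that faces these capillaries held called genes. Among 10 alveolar type 1 genes 3 rose (Ager, Aqp5 and Hopx, with log2 fold changes of 0.45, 0.49 and 0.42), against 2.28% of all tested genes called in either direction. The list median was 0.003, and Emp2 was among the most abundant. Among 10 alveolar type 2 genes 4 surfactant genes rose (Sftpa1, Sftpb, Sftpc and Sftpd, from 0.43 to 0.62), against the same 2.28%, with a list median of 0.358. Their summed level was 25970 to 27720 CPM in WT and 36310 to 38360 CPM in KO, and Lyz2, also abundant, had an estimate of 0.28. None of these 7 calls held with any one WT library, KO1 or KO2 with KO3 left out. For Sftpc the estimate was then 0.57 to 0.66 and for Ager 0.42 to 0.47. With the length and GC offset none was called either, and Ager was at 0.28, Aqp5 at 0.26, Hopx at 0.37, Sftpa1 at 0.42, Sftpb at 0.33, Sftpc at 0.48 and Sftpd at 0.54. Blood was uneven, since 9 erythroid genes summed to 2493 to 5677 CPM in WT, 4083 CPM in KO1 and 19450 to 20180 CPM in KO2 and KO3, with 0 called by edgeR and 2 at an unadjusted p of 0.05 or less. The most abundant were Hbb-bs and Hba-a1. Leukocyte genes summed to 4616 to 5374 CPM in WT and 5707 to 6059 CPM in KO, most of it Lyz2, which alveolar type 2 cells also express. Without Lyz2 the other 9 summed to 404 to 433 CPM in WT and 338 to 349 CPM in KO. The list had a median of -0.110, with 0 of 10 called by edgeR and 2 at an unadjusted p of 0.05 or less (Lyz2 and, at -0.46, Ptprc were the most abundant). None of the 15 squamous epithelium genes was called by edgeR and 0 had an unadjusted p of 0.05 or less, and Krt4 and Krt13 were the most abundant. Whether blood content or alveolar epithelial RNA has a part in the levels of the capillary genes was not tested. For squamous epithelium RNA, a fit with a term for it is given below with the other alternatives.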

How the data were processed

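Lung RNA was sequenced in 6 libraries labelled as 6 mice, and the deposited table holds raw counts per gene and library. Per the labels and the study's methods, the authors trimmed reads with Trimmomatic 0.36, aligned them to GRCm38 (mm10) with STAR 2.5.3a and counted them with HTSeq 0.6.0 in GenPipes, with Picard 2.9.0 also named. The annotation release, read length and strand setting are not given in the sources used here. Total counts of 59134950 to 71354388 set the precision.

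Genes were placed with GENCODE M21 (97.5% of identifiers matched). In R 4.3.3, edgeR 4.0.16 was run with filterByExpr, TMM factors and the two-sided quasi-likelihood test over 18660 genes, called at a Benjamini-Hochberg adjusted p of at most 0.05. KO2 and KO3 were summed. SEs were derived from estimates and F statistics. The scripts were tested on simulated data. There were 17 alternatives, DESeq2 1.42.0 among them, of which 2 were added after seeing the data (endothelial scaling, and leaving out WT3 and KO1).

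The members and gene lists were chosen with earlier results of these data known. Named genes were the 10 members, called and the 2 most abundant genes of each list, ligands and receptors of their pathways, and the 5 genes nearest to the members' mean profile. Others (Mme, Ctnnd1, Prox1, Mmrn1, Reln, Tbx1) were picked after their values were seen. P-values measure the spread between these samples only.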

Additional observations from a re-analysis of the deposited data

How the results depend on the processing

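Car4, Plvap and Emcn kept estimates above 0, and Ednrb, Aplnr and Tek below 0, under the 11 alternatives that use every sample. Most of these keep nearly the same scaled counts, so with groups that do not overlap the signs could hardly change. Library size alone, the length and GC offset, endothelial scaling and the squamous epithelium term change the scaling or the model, and the signs were kept there too. In the 6 that leave samples out the signs of these genes were the same, which follows from groups that do not overlap. The other members changed sign in some fits. Pecam1 was -0.038 with the 6 libraries kept separate, -0.042 with a replicate block, -0.045 with library size alone, -0.031 with a squamous epithelium term, -0.106 with endothelial scaling and -0.089 without WT3 and KO1, and ran from -0.130 to 0.125 with samples left out in turn. Apln was -0.002 with the length and GC offset, -0.045 with endothelial scaling and -0.140 without WT3 and KO1 (-0.090 to 0.207 with samples left out in turn). Kdr was 0.020 with the length and GC offset, and Cdh5 ran from -0.280 to 0.120 with samples left out. The count of members called was 4 with DESeq2 (adjusted p of 0.00686 for Car4, 0.00728 for Plvap, 0.0377 for Tek and 0.0468 for Emcn), 1 with the squamous epithelium term (Car4, 0.0363) and 1 without WT3 and KO1 (Ednrb, 0.0431). The median of the members was -0.085 with libraries kept separate, -0.092 with the block, -0.080 with library size alone, -0.075 with the squamous term, -0.143 with endothelial scaling and -0.190 without WT3 and KO1, and -0.187 to 0.122 with samples left out. Over all genes the 426 calls became 3402 with libraries kept separate, 1157 with the block, 909 with at least 10 counts in every sample, 3908 with DESeq2, 209 with edgeR's exact test, 2380 with the squamous term, 0 with the length and GC offset, 2 with endothelial scaling, 2256 without WT3 and KO1, and 0 to 17 with samples left out (0 without WT1, WT2, WT3 or KO2 with KO3, 17 without KO1). Library size alone gave 117 higher and 189 lower calls against 257 and 169. Where a sample left out leaves KO with 1 sample, it is assumed to vary like WT, and without WT3 and KO1 the spread comes from WT1 and WT2 alone. Replicate numbers share no animal, litter or day by the labels, and deviations of same-numbered libraries correlated at -0.656, 0.755 and -0.821, so the block is given only here. The cause of these differences was not tested.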

Other observations

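The genes whose profile over the 6 libraries was nearest to the mean profile of the 10 capillary genes, by root mean square distance of centred log2 CPM among genes at 10 CPM or more, were Agpat5 (0.013), 1810010H24Rik (0.017), Slc39a1 (0.018), Fundc2 (0.018) and Rdh13 (0.021). These distances describe a mean profile that is nearly flat. Between members the nearest were Ednrb and Tek (0.054), Aplnr and Kdr (0.060), and Cdh5 and Kdr (0.069), and the farthest were Plvap and Ednrb (0.368).

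Among 12 tested carbonic anhydrase genes 0 were called by edgeR and the median was 0.124. Of them 5 had an unadjusted p of at most 0.05, against 27.3% of all tested genes. Car3, abundant in adipose tissue and muscle, was at 359 to 486 CPM in WT and 83.2 to 188 CPM in KO (log2 fold change -1.61, adjusted p = 0.0751, edgeR), the opposite direction to Car4. Among 8 adherens junction genes 0 were called by edgeR and the median was -0.007. Of them 2 had an unadjusted p of at most 0.05, against 27.3% of all tested genes. Ctnnd1, the p120 catenin that binds VE-cadherin, was at 74.6 to 77.0 CPM in WT and 91.9 to 105 CPM in KO (log2 fold change 0.39, SE 0.062, adjusted p = 0.0506, edgeR), while Cdh5 itself overlapped.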
